A study of Sus scrofa with 40 samples.

Results

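Fatty acids enter fat cells, are stored there as triglyceride and leave again through a short chain of proteins. Here 5 genes of that chain were followed through backfat and liver of pigs: the lipases LPL, LIPE and PNPLA2 and the fatty acid binding proteins FABP4 and FABP5. Members were all probe sets (groups of short probes for 1 transcript) whose only gene symbol in the platform annotation was 1 of these 5. This gave 8 of the 23999 probe sets that remain after control probes are left out, and each was kept apart. LPL, PNPLA2 and FABP5 had a pair of probe sets each, and LIPE and FABP4 had 1 each.

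The pigs were 20 Yorkshire gilts before puberty, 6 months old, from lines with low or high residual feed intake (RFI), the feed an animal eats beyond what its growth and upkeep predict. Low RFI marks the efficient animals. In each line 5 gilts ate ad libitum and 5 received 80% of their maintenance need for 8 days, and liver and the middle layer of backfat at the 10th rib each gave 20 arrays, 5 a group. Control and restricted pigs alike were chosen as heterozygous for a variant of MC4R, a receptor that governs appetite, although 1 label speaks only of specific genotypes. Each sample was whole tissue on a 1-colour Affymetrix array. The labels do not say which liver and which backfat sample came from the same gilt, and p-values measure the spread between the arrays of a group.

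LPL sits on the capillary wall and frees fatty acids from triglyceride in circulating lipoproteins, which lets fat tissue take them up and store them. Inside the fat cell PNPLA2 (adipose triglyceride lipase) takes the first fatty acid off stored triglyceride and LIPE (hormone-sensitive lipase) continues with the diglyceride, and both are best known for the release of fatty acids during fasting. FABP4 is the abundant fatty acid carrier of the adipocyte cytoplasm, and FABP5 is a related carrier with a wider tissue range. In the RefSeq gene table of the pig the genes of both carriers lie on the same chromosome with 1 coding gene, PMP2, between them.

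Values are scaled intensities of the deposited table. They compare samples for 1 probe set and do not rank one probe set against another. Array medians ran from 127 to 191, and the mean after trimming 2% at each end was about the same on all arrays, 500.09 to 500.15. Markers of other tissues varied widely among the backfat arrays, and their part in the results was not tested beyond the alternatives given with each. The summed intensity of 11 skeletal muscle markers was 9363 to 96624 in ad libitum and 6655 to 105924 in restricted backfat, with the highest value in array 1 of the low RFI restricted group. The median sums were 16944 and 16676. CA3, 1 of the 11, alone had a backfat median of 8644 and read up to 7455 in liver, so low sums do not measure muscle alone. The sum of 13 hepatocyte markers was 3306 to 5286 in ad libitum and 5001 to 98493 in restricted backfat, the highest being array 5 of the low RFI restricted group. On most arrays this sum was largely APOA1, with a backfat median of 4575 against 146 for the next marker, ALB. By mean log2 signal of the 13 the diets overlapped, at 4.72 to 6.77 in ad libitum and 5.48 to 12.23 in restricted backfat. The 12.23 was that same array, and the next highest was 8.25. On 7 backfat arrays, 3 low RFI ad libitum, 3 low RFI restricted and 1 high RFI restricted, the mean log2 signal of either list was above 11, and these are called the marker-rich arrays. ADIPOQ (adiponectin), a defining adipocyte product, lay between 18513 and 32522 in every backfat array and between 13.8 and 76.9 in liver. ALB (albumin) lay between 29576 and 51144 in liver. Other adipocyte markers were less uniform. In backfat LEP read 102 to 3445, CFD 3295 to 8623, PPARG 2086 to 6472 and RETN 3.72 to 70. In liver CFD read 1026 to 1984, and LEP, PPARG and RETN read at most 144. The RNA quality controls were 3′ to 5′ ratios on the log2 scale, which rise as RNA or its copy is shortened. GAPDH gave 1.19 ± 0.37 (SD, n = 10) in ad libitum and 1.88 ± 0.52 (SD, n = 10) in restricted backfat. The actin log2 ratio differed by less than its SD, at 1.80 ± 0.42 and 1.90 ± 0.59. Fewer cells of a type and less RNA per cell cannot be told apart in whole tissue.

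All 8 probe sets were far brighter in backfat than in liver. Levels in the 20 backfat arrays ran from 4205 to 17734 for LPL probe set A (Ssc.16335.1.S1_at) and from 9627 to 19238 for LPL probe set B (Ssc.16335.1.S2_at). In liver the same probe sets read 9.24 to 89.1 and 1.93 to 47.2. LIPE (Ssc.6784.1.S1_at) read 2258 to 9983 in backfat and 3.28 to 9.28 in liver. None of the backfat ranges touched the liver range of its own probe set. How many of all probe sets separate the tissues in this way was not counted.

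PNPLA2 was the member with a clear liver level. Its probe set A (Ssc.18524.1.S1_at) lay between 552 and 1627 in liver and between 5444 and 12204 in backfat, and its dimmer probe set B (Ssc.21765.1.S1_at) between 39.2 and 161 in liver and between 242 and 1689 in backfat. FABP4 (Ssc.1089.1.S1_at) read 16368 to 23074 in backfat, at or above the 99.5th percentile of every array, against 10.2 to 232 in liver. FABP5 probe set A (Ssc.5549.1.S1_at) read 11109 to 24463 in backfat and 199 to 731 in liver, so this carrier too was measurable in liver. FABP5 probe set B (Ssc.5549.2.S1_at) read 628 to 2117 and 14.4 to 76.1.

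**Figure D1:**
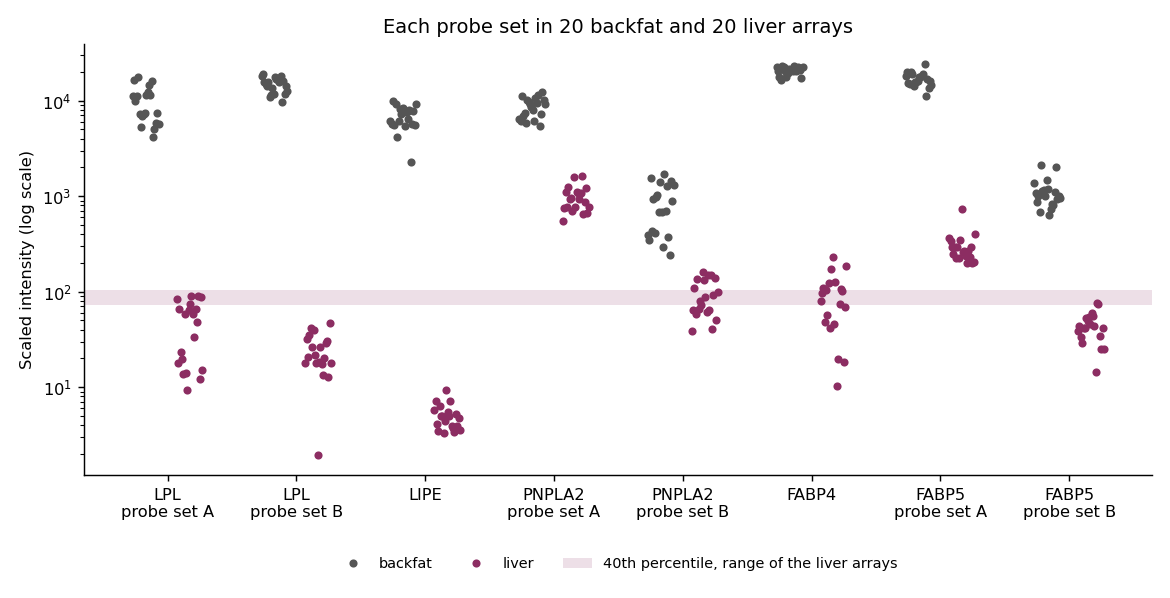
Scaled intensity (log axis) of each of the 8 probe sets in the 20 backfat arrays (grey) and the 20 liver arrays (purple), with the band of the 40th percentiles of the liver arrays. Backfat and liver do not overlap for any of the 8, a separation whose share over all probe sets was not counted. In liver only PNPLA2 probe set A and FABP5 probe set A lie above the band on all 20 arrays.

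With limma over all probe sets, 80.4% of the 17174 probe sets tested differed between the tissues (adjusted p under 0.05) and 50.5% were higher in backfat. All 8 members were among the latter, so the count itself sets them little apart and the size carries the description. A fold could be measured on both sides for PNPLA2 probe set A, 8.93-fold higher in backfat (log2 difference 3.16, SE 0.118, adjusted p = 1.89e-24), and for FABP5 probe set A, 59.3-fold higher (5.89, SE 0.103, adjusted p = 8.83e-35). For the others the liver level was replaced, on each array where it lay lower, by that array's 40th percentile, which gives lower bounds. FABP4 was at least 191-fold higher in backfat, with 10 of 20 liver arrays above that percentile. LPL was at least 165-fold higher by probe set B and at least 101-fold by probe set A, with 0 and 1 liver arrays above it. LIPE was at least 74.1-fold, FABP5 probe set B at least 11.9-fold and PNPLA2 probe set B at least 6.9-fold higher, with 0, 0 and 9 liver arrays above it. These bounds rest on the percentile chosen. With the 60th in its place the log2 bound fell from 7.58 to 6.45 for FABP4, from 7.36 to 5.96 for LPL probe set B and from 6.66 to 5.26 for probe set A.

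The next comparison asked what a short restriction did to these genes in fat. LPL was lower in restricted backfat by both probe sets and FABP5 moved in opposite directions by its pair, while FABP4, LIPE and PNPLA2 did not pass the test. In limma 4 of the 8 member probe sets passed an adjusted p of 0.05, 3 lower and 1 higher, beside 25.8% of all 15498 probe sets tested (10.7% lower, 15.1% higher). The median log2 difference over all of them was 0.08.

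LPL probe set A carried the clearest change among the members. Ad libitum pigs of the low RFI line read 11359, 12199, 14732, 11521 and 15993, and those of the high RFI line 11264, 16546, 9886, 11201 and 17734. Restricted low RFI pigs read 4205, 5020, 5800, 7468 and 5712, and restricted high RFI pigs 7267, 5282, 6893, 7274 and 7498. The highest of the 10 restricted values was thus under the lowest of the 10 ad libitum values, a separation in this direction that 1.01% of the tested probe sets showed. Signal fell by 1.08 on the log2 scale (SE 0.12, n = 10 a diet, limma adjusted p = 4.27e-06), which is 2.12-fold. Among all probe sets tested, 10.7% passed lower and 15.1% higher. Of 4 adipocyte markers tested beside it, only CFD passed, rising by 0.62, and the median log2 difference of the 4 was -0.05. PPARG, another of the 4, was lower without passing, and its value is given with the regulators below. Of 6 stromal markers LUM fell by 1.13 and THY1 by 0.56 and 0 rose, with a median of -0.34. The other 4 stromal markers lay between -0.60 (COL1A2) and 0.38 (PDGFRB, adjusted p = 0.0509), and the part of either list in the LPL value was not tested. The call held with the 7 marker-rich arrays left out (log2 difference -1.14, SE 0.168, adjusted p = 0.00318).

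LPL probe set B changed less. It read 17502, 16735, 16434, 15803 and 18037 in ad libitum low RFI pigs and 18201, 19238, 15801, 15028 and 14278 in ad libitum high RFI pigs. Restricted pigs read 9627, 16098, 11827, 14279 and 12562 in the low RFI line and 15642, 10952, 11578, 13574 and 11666 in the high RFI line. The diets overlapped, since 3 restricted pigs lay at or above the lowest ad libitum pig. Signal fell by 0.40 on the log2 scale (SE 0.0895, adjusted p = 0.00282), or 1.32-fold. Without the 7 marker-rich arrays the log2 difference was -0.39 (adjusted p = 0.0763), and with arrays numbered 1 and 2 alone it was -0.49 (adjusted p = 0.198).

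**Figure D2:**
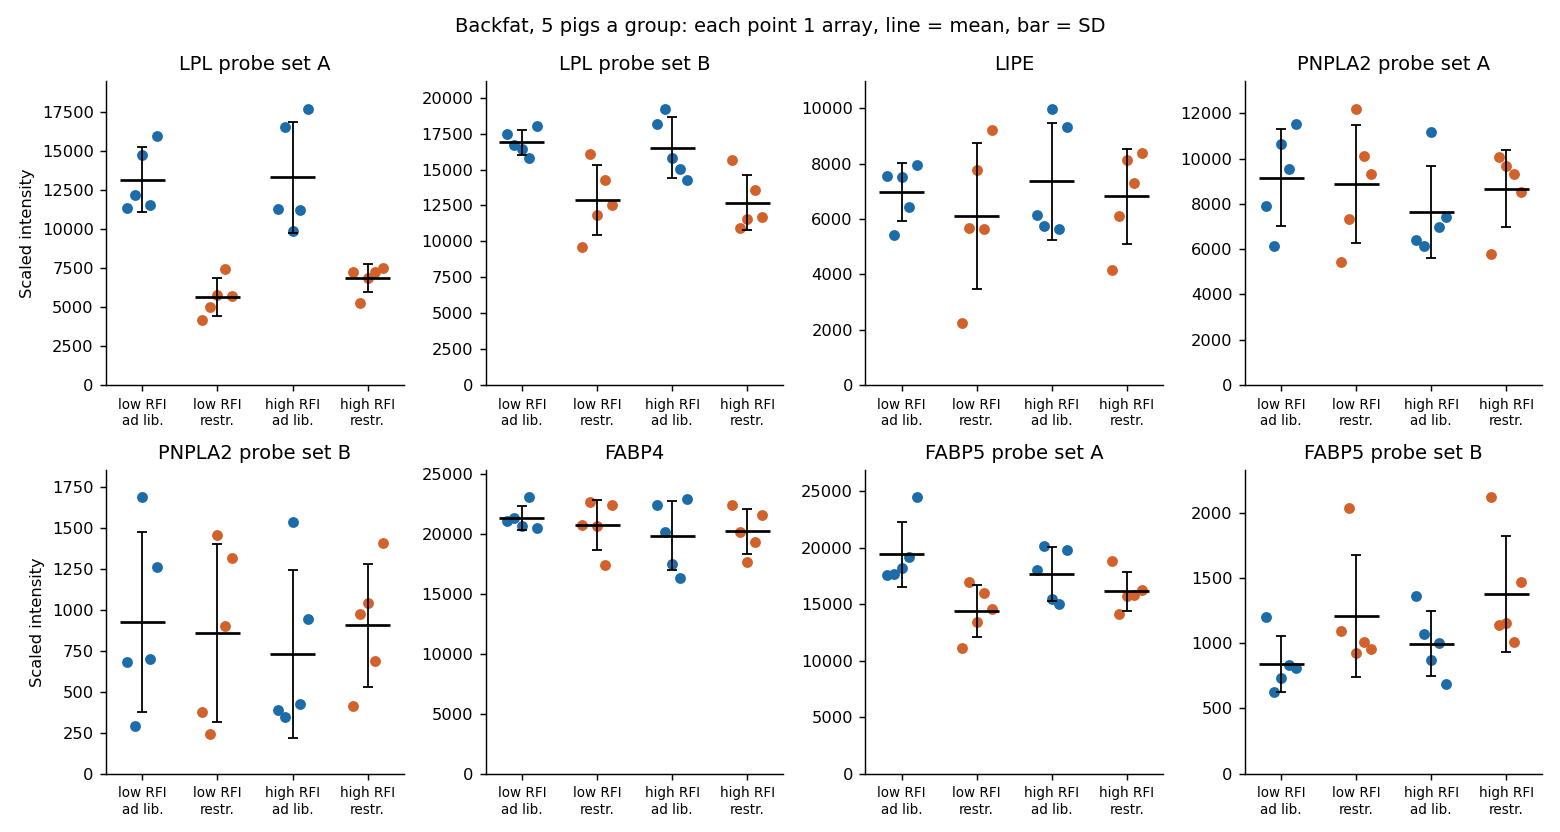
Scaled intensity of each probe set in the 4 backfat groups (blue ad libitum, orange restricted; 1 point an array, line the mean, bar the SD, n = 5 a group), each axis starting at 0. For LPL probe set A the restricted points (4205 to 7498) lie wholly below the ad libitum points (9886 to 17734), while FABP4 stays between 16368 and 23074 in all groups.

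The size of the fall in LPL thus depended on the probe set. Both carry the same transcript accession in the annotation, and over the 20 backfat arrays their log2 values had a Pearson correlation of 0.75. The log2 signal of probe set A minus that of B was -0.36 ± 0.31 (SD, n = 10) in ad libitum and -1.04 ± 0.28 (SD, n = 10) in restricted backfat. This change of -0.69 exceeded the spread between arrays (exact permutation of diet within line, two-sided, 63504 arrangements, adjusted p = 0.000283 over 3 pairs, a test chosen after the values were seen). The GAPDH ratio given above differed between the same diets, and its part in the gap between the probe sets was not tested.

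FABP5 gave 2 answers. Probe set A read 17592, 17699, 18248, 19187 and 24463 in ad libitum low RFI pigs and 18032, 20129, 15485, 15041 and 19835 in ad libitum high RFI pigs. Restricted pigs read 11109, 16954, 13449, 15982 and 14574 in the low RFI line and 18868, 14123, 15709, 15839 and 16262 in the high RFI line. In the low RFI line the diets did not overlap, as for 4.27% of all probe sets in this direction, and in the high RFI line they did. Averaged over the lines, signal fell by 0.28 on the log2 scale (SE 0.088, limma adjusted p = 0.0228), or 1.22-fold.

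FABP5 probe set B read 1197, 628, 730, 830 and 809 in ad libitum low RFI pigs and 1365, 1068, 869, 999 and 687 in ad libitum high RFI pigs. Restricted pigs read 1097, 2034, 927, 1009 and 959 in the low RFI line and 2117, 1140, 1154, 1011 and 1467 in the high RFI line. The ranges overlapped, and 1 restricted pig in each line stood apart, at 2034 and 2117. Signal rose by 0.47 (SE 0.167, limma adjusted p = 0.0435), or 1.38-fold.

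Neither FABP5 call was firm. Probe set A missed the threshold in 5 of 31 alternative settings of the analysis and probe set B in 18 of 31, among them 12 of the 20 that leave out a single array. Without the 7 marker-rich arrays the log2 differences were -0.29 (adjusted p = 0.177) and 0.51 (adjusted p = 0.193). Probe set A minus B went from 4.37 ± 0.44 (SD, n = 10) to 3.62 ± 0.34 (SD, n = 10), a change of -0.75 (exact permutation, adjusted p = 0.00104). This test too was chosen after the values were seen. It passed in 24 of the 25 alternatives run for it, a smaller set that held no RNA quality or marker covariates and no replicate block. The probe sets carry different accessions in the annotation, and their log2 values had a Pearson correlation of -0.12 over the 20 backfat arrays. Which transcripts each of them detects was not tested.

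**Figure D3:**
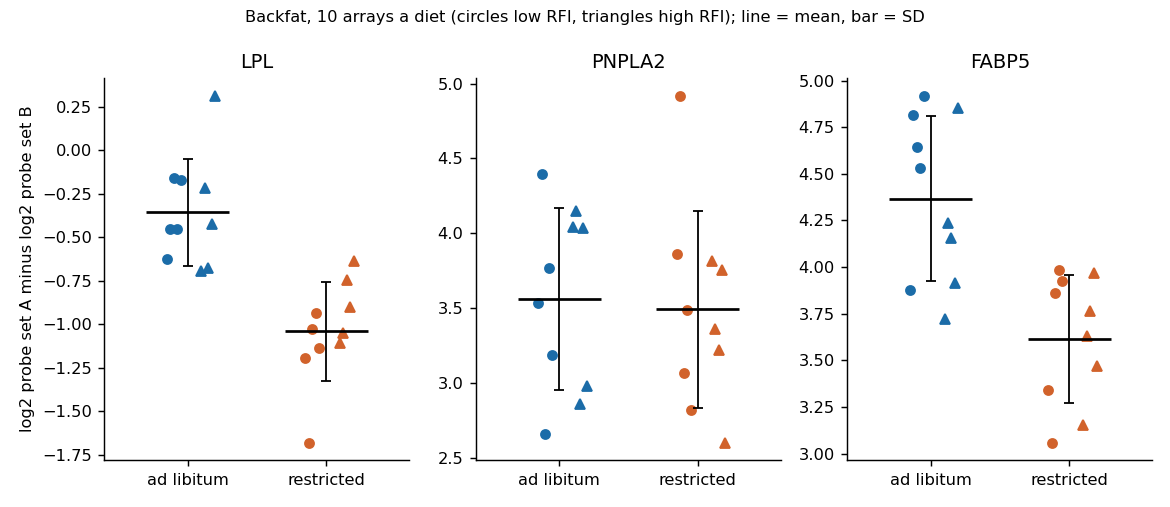
Log2 signal of probe set A minus that of B on each backfat array, by diet, for the 3 genes with a pair of probe sets (circles low RFI, triangles high RFI; line the mean, bar the SD, n = 10 a diet). The difference drops from -0.36 to -1.04 for LPL and from 4.37 to 3.62 for FABP5, and for PNPLA2 the means are 3.56 and 3.49.

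The lipolytic enzymes gave no call in fat under the test as designed. LIPE read 7541, 5408, 7520, 6418 and 7959 in ad libitum low RFI pigs, and 6145, 5748, 9983, 5623 and 9337 in ad libitum high RFI pigs. Restricted pigs read 2258, 5657, 7773, 5624 and 9227 in the low RFI line and 4171, 6092, 8139, 7308 and 8366 in the high RFI line. The diets overlapped almost throughout, with 2 restricted pigs below all others. The log2 difference was -0.22 (SE 0.201, 95% interval -0.63 to 0.20, adjusted p = 0.464).

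This value moved with 1 array and with the RNA quality controls. The lowest LIPE reading, 2258, came from array 1 of the low RFI restricted group, which also had the most muscle signal (105924) and the lowest backfat reading of LPL probe sets A and B, PNPLA2 probe set A and FABP5 probe set A. Without it the LIPE difference was -0.05 (adjusted p = 0.827). With both control ratios in the model, LIPE passed the threshold instead (log2 difference -0.71, SE 0.165, adjusted p = 0.00983).

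PNPLA2 probe set A read 7925, 6145, 10641, 9530 and 11518 in ad libitum low RFI pigs and 6419, 6144, 11152, 6985 and 7418 in ad libitum high RFI pigs. Restricted pigs read 5444, 7323, 12204, 10116 and 9310 in the low RFI line and 5795, 10065, 9681, 9306 and 8545 in the high RFI line. The diets overlapped over nearly their whole range. The log2 difference was 0.07 (SE 0.153, 95% interval -0.25 to 0.38, adjusted p = 0.791). Probe set B gave 0.14 (SE 0.376, 95% interval -0.65 to 0.92, adjusted p = 0.829). Both turned negative with the GAPDH and actin ratios in the model, at -0.22 (adjusted p = 0.271) and -0.39 (adjusted p = 0.243).

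In both lipases the backfat means differed more by array number than by diet, a contrast that was not tested. PNPLA2 probe set B averaged 8.72 ± 0.66 (log2, SD, n = 8) on the backfat arrays numbered 1 and 2 and 10.02 ± 0.59 (SD, n = 12) on those numbered 3 to 5. Probe set A averaged 12.73 ± 0.29 and 13.23 ± 0.24, and LIPE 12.32 ± 0.53 and 12.90 ± 0.27. The LIPE gap was not the same in both diets. Ad libitum pigs averaged 12.59 ± 0.21 (SD, n = 4) and 12.90 ± 0.31 (SD, n = 6). Restricted pigs averaged 12.05 ± 0.65, with the array at 2258 among these 4, and 12.90 ± 0.24. The actin 3′ to 5′ log2 ratio also differed by array number, at 2.27 ± 0.55 (SD, n = 8) and 1.56 ± 0.16 (SD, n = 12). The GAPDH log2 ratio differed by less than its SD and in the other direction, at 1.42 ± 0.64 and 1.61 ± 0.52. The labels do not say what the numbers stand for, and each set holds both diets and both lines in equal shares.

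FABP4 varied least among the members, with an SD of 0.15 in log2 over the 20 backfat arrays. Ad libitum pigs read 21083, 21350, 20663, 23074 and 20554 in the low RFI line and 22424, 20209, 17489, 16368 and 22940 in the high RFI line. Restricted pigs read 20770, 22646, 20707, 17411 and 22419, and 22462, 20218, 17648, 19321 and 21591. The groups overlapped throughout, with a log2 difference whose 95% interval ran from -0.15 to 0.15 (SE 0.0721, adjusted p = 0.973). These readings lie near the top of the array scale, and whether signal still rises in proportion to RNA there was not tested.

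**Figure D4:**
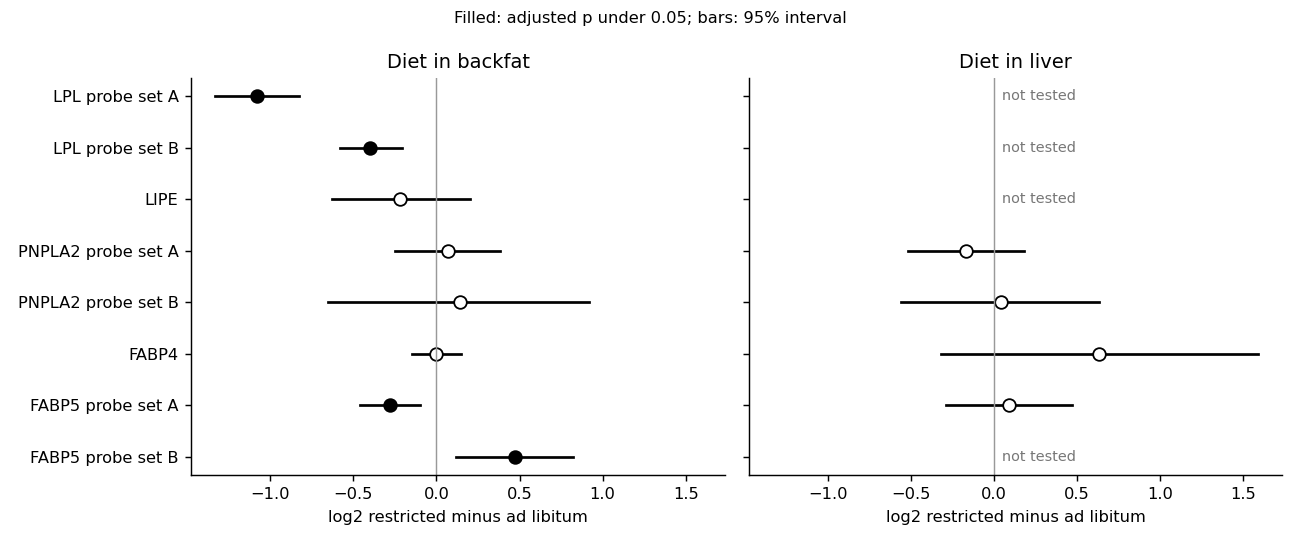
Log2 difference, restricted minus ad libitum, of each probe set in backfat and in liver with its 95% interval (filled where the adjusted p is under 0.05). In backfat the LPL probe sets (-1.08 and -0.40) and the FABP5 probe sets (-0.28 and 0.47) are filled, and in liver 4 probe sets were too dim to test and none of the other 4 is filled.

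In each line taken alone LPL probe set A passed the test. It fell by 1.23 on the log2 scale in low RFI pigs (SE 0.17, adjusted p = 0.000207) and by 0.93 in high RFI pigs (SE 0.17, adjusted p = 0.00249). LPL probe set B gave -0.41 (adjusted p = 0.0447) and -0.38 (adjusted p = 0.0602). FABP5 probe set A gave -0.44 in low RFI pigs (adjusted p = 0.0315) and -0.13 in high RFI pigs (adjusted p = 0.575), and probe set B gave 0.49 (adjusted p = 0.204) and 0.45 (adjusted p = 0.245). In all, 3 members passed in the low RFI line, where 9.2% of all probe sets did, and 1 in the high RFI line, where 9.02% did. LPL probe set A separated the diets in both lines, which 4.27% of all probe sets did in this direction in the low and 3.19% in the high RFI line. Leaving out the 7 marker-rich arrays, which leaves 2 low RFI pigs a diet, LPL probe set A gave -1.32 in that line (adjusted p = 0.151). In high RFI pigs it gave -1.14 with arrays numbered 1 and 2 alone (adjusted p = 0.0836) and -0.79 with arrays 3 to 5 alone (adjusted p = 0.0795).

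These line-by-line values do not show a difference between the lines. In the test of that difference (interaction term) 0 members and 0 of all probe sets passed in limma, with 244 at an unadjusted p under 0.05 and none of the members among them. The smallest member p belonged to FABP5 probe set A (log2 difference of the diet effects -0.31, SE 0.176, limma adjusted p = 1). For LPL probe set A the interval of that difference ran from -0.80 to 0.20.

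No difference between the lines was detected for these genes in fat. Averaged over diets, 0 of 8 members passed in limma, beside 3 of 15498 probe sets (0.0194%). An unadjusted p under 0.05 was found for 0 members and for 1205 of all probe sets tested. FABP5 probe set B came closest, with a log2 difference (low minus high RFI) of -0.23 (SE 0.167, adjusted p = 0.817). For LPL the 95% intervals were -0.39 to 0.11 and -0.16 to 0.21, for FABP4 -0.07 to 0.23. Skeletal muscle markers differed more between the lines, with a median log2 difference of 2.20 that no single marker carried past the threshold. In the order of log2 group means in backfat, LPL probe set A stood at 13.67 ± 0.22 (SD, n = 5) in low RFI ad libitum, 13.66 ± 0.38 in high RFI ad libitum, 12.73 ± 0.21 in high RFI restricted and 12.44 ± 0.30 in low RFI restricted pigs. Neighbours of the same diet differed by less than the larger SD, and only the step between the diets, 0.93, exceeded it. LPL probe set B had its one such step, 0.37, at the same place. For the other 6 probe sets no step between neighbouring backfat groups exceeded the larger SD of the 2 groups.

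In liver no member passed the test for diet. PNPLA2 probe set A and FABP5 probe set A lay above the filter level on all 20 liver arrays, and the other 6 probe sets on at most 10 of them. The filter (above the 40th percentile of the array on at least 5 arrays) left 4 of the 8 to test. In limma 0 of them passed for diet, beside 0.919% of 15677 probe sets. At an unadjusted p under 0.05 the member count was also 0, beside 1941 of all probe sets tested. PNPLA2 probe set A read 1118, 1082, 939, 1080 and 1627 in ad libitum and 651, 876, 1229, 670 and 776 in restricted low RFI pigs. In high RFI pigs it read 552, 755, 1119, 770 and 1251 ad libitum and 938, 965, 698, 1595 and 775 when restricted. The groups overlapped in both lines, with a log2 difference of -0.17 over both (SE 0.168, 95% interval -0.52 to 0.18, adjusted p = 0.763).

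PNPLA2 probe set B gave 0.04 in liver (SE 0.288, adjusted p = 0.979) and FABP5 probe set A 0.09 (SE 0.181, adjusted p = 0.906). FABP5 probe set A had 1 liver array apart from the rest, at 731 against 199 to 406 on the other 19. FABP4 read 10.2 to 127 in ad libitum and 18.5 to 232 in restricted liver, a wide scatter near the filter level, and its log2 difference was 0.63 (SE 0.459, 95% interval -0.32 to 1.59, adjusted p = 0.631). The line comparison in liver gave 0 of 4 members (0.0447% of all), the smallest p being that of FABP5 probe set A at -0.34 (SE 0.181, adjusted p = 0.803). The interaction in liver gave 0 of 4 members and 0 of all probe sets (525 at an unadjusted p under 0.05, none of them a member), the smallest p being that of PNPLA2 probe set A at -0.65 (adjusted p = 0.999).

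Whether diet acted differently in fat and liver could be tested for the same 4 probe sets. The count past the threshold was 0 of 4, beside 10.9% of the 14001 probe sets tested in both tissues. The log2 difference of the diet effects, backfat minus liver, was -0.37 for FABP5 probe set A (95% interval -0.79 to 0.04, adjusted p = 0.274) and -0.64 for FABP4 (-1.59 to 0.32, adjusted p = 0.446). For PNPLA2 it was 0.23 (adjusted p = 0.606) and 0.10 (adjusted p = 0.937). LPL was too dim in liver to enter this test.

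Of 4 tested genes on a list made around LPL, not all of them its regulators, 1 rose and 0 fell in restricted backfat. GPIHBP1, the endothelial protein that carries LPL to the capillary lumen, read 240 to 1759 in ad libitum and 635 to 3905 in restricted pigs and rose by 1.42 on the log2 scale (SE 0.397, limma adjusted p = 0.0121). The list's median log2 difference was 0.46, and 25.8% of all probe sets passed in this comparison. ANGPTL4, a secreted inhibitor of LPL, gave 0.49 and did not pass, nor did LIPC or VLDLR. GPIHBP1 gave 0.76 (adjusted p = 0.0488) with the GAPDH and actin ratios in the model and 1.13 (adjusted p = 0.179) without the 7 marker-rich arrays. Of 8 endothelial markers 2 rose, TEK by 0.58 and CLDN5 by 0.80, with a median of 0.24; their part in the GPIHBP1 value was not tested.

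Among 13 tested genes of lipolysis and the lipid droplet the median log2 difference in backfat was -0.02. With restriction 1 fell and 0 rose, beside 10.7% of all probe sets lower and 15.1% higher. The one was PNPLA3, a relative of PNPLA2 whose transcript is known to follow feeding, which read 91.4 to 2116 in ad libitum and 55 to 382 in restricted pigs and fell by 1.68 on the log2 scale (SE 0.382, adjusted p = 0.00299). ABHD5, the protein activator of PNPLA2, gave -0.09, and MGLL, which finishes the breakdown of monoglyceride, gave -0.35, neither past the threshold. The call on PNPLA3 was lost with the GAPDH and actin ratios in the model (-1.36, adjusted p = 0.0822) and without the 7 marker-rich arrays (-1.65, adjusted p = 0.0818).

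Genes of fatty acid uptake, binding and activation split. Of 8 tested, 3 fell and 3 rose, beside 10.7% of all probe sets lower and 15.1% higher, and the list's median log2 difference was -0.12. GOT2, a mitochondrial transaminase that also acts as a fatty acid binding protein of the plasma membrane, fell by 0.74 (SE 0.116, adjusted p = 0.000135), and FABP3, the heart-type relative of FABP4, fell by 0.29 (SE 0.0903, adjusted p = 0.0232). Acyl-CoA synthetases, which activate fatty acids, went both ways: ACSL1, the main form of adipocytes, fell by 0.55 (adjusted p = 0.00109), while ACSL5 rose by 0.51 (adjusted p = 0.00208), ACSL3 by 0.60 (adjusted p = 0.00476) and ACSL4 by 0.41 (adjusted p = 0.00647). FABP3 missed the threshold in 5 alternatives, including the 7 arrays left out (-0.20, adjusted p = 0.323), which also ended the calls on ACSL1 (-0.46, adjusted p = 0.0564) and ACSL5 (0.43, adjusted p = 0.115). ACSL4 missed it with the GAPDH and actin ratios in the model (0.28, adjusted p = 0.121) and with arrays numbered 1 and 2 alone (0.22, adjusted p = 0.505), and ACSL3 with arrays 3 to 5 alone (0.40, adjusted p = 0.0816).

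Regulators gave 0 calls of 9 tested in backfat, beside 25.8% of all probe sets. PPARG, the nuclear receptor that drives adipocyte genes including LPL and FABP4, gave -0.34 (adjusted p = 0.0682), and CEBPA, its partner, gave -0.52 (adjusted p = 0.115). CEBPA passed with the GAPDH and actin ratios in the model (-0.76, adjusted p = 0.0325) and with the array number as a block (-0.52, adjusted p = 0.0231). In liver 0 genes of the 4 lists passed (of 6, 12, 9 and 10 tested), beside 0.919% of all probe sets. The nearest was ANGPTL4 at -0.49 (adjusted p = 0.0825). The smallest p values of the other lists belonged to FABP1, the liver-type carrier, at -0.30 (adjusted p = 0.196) and FABP3 at -0.66 (0.31), to the coactivator PPARGC1A at -0.49 (0.246) and CEBPB at -0.48 (0.251), and to PNPLA3 at -1.38 (0.401) and PLIN2, a lipid droplet coat protein, at 0.20 (0.603); APOC2, the activator of LPL, gave 0.18 (0.293). Other settings changed a pair of these calls: PPARGC1A passed with the array number as a block (adjusted p = 0.041) and FABP1 with quantile normalization (-0.41, adjusted p = 0.0247). For line, 0 genes of these lists passed in either tissue, beside 0.0194% of all probe sets in backfat and 0.0447% in liver.

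**Figure D5:**
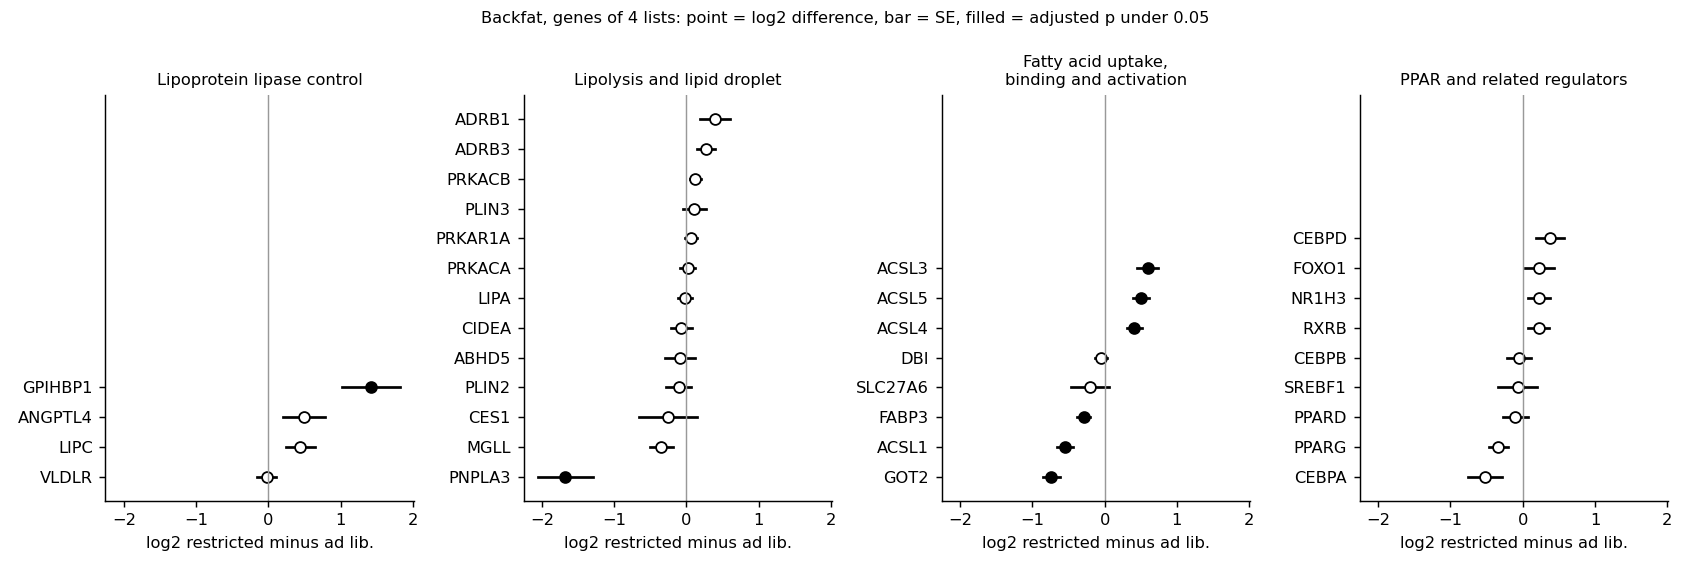
Log2 difference, restricted minus ad libitum, in backfat for each tested gene of the 4 lists (bar the SE; filled where the adjusted p is under 0.05). GPIHBP1 is higher at 1.42 and PNPLA3 lower at -1.68, the uptake list splits into 3 lower and 3 higher, and no regulator is filled.

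The genes whose backfat signal ran most like each member over the 20 arrays were found by Pearson correlation of log2 values among 7563 genes, 1 probe set a gene. LPL probe set B ran most like TSPAN12, a tetraspanin (r = 0.86, and 0.81 with group means removed), and the mitochondrial chaperones HSPE1 (0.86 and 0.67) and HSPD1 (0.85 and 0.68). LIPE ran most like RBPMS (0.89 and 0.91), SIK2 (0.85 and 0.86), a kinase of adipocytes, and COL4A2 (0.82 and 0.81). PNPLA2 probe set A ran most like SCAP (0.88 and 0.89), HMOX2 (0.88 and 0.89) and CDK9 (0.87 and 0.90). FABP5 probe set A ran most like PCYOX1 (0.86 and 0.77), MGST1 (0.82 and 0.78) and PPIA (0.81 and 0.70). FABP4, with little variation of its own, reached 0.75 with SUPT4H1 and 0.74 with B2M and RPL35. In liver, over 7877 genes, FABP5 ran most like LYVE1, a marker of sinusoidal endothelium (0.74 and 0.86), ZFP36 (0.74 and 0.75) and SRI (0.73 and 0.70). There PNPLA2 ran most like RRAGC (0.80 and 0.81), CAPN10 (0.77 and 0.87) and SIK3 (0.77 and 0.78), and FABP4 like HAMP (0.75 and 0.71), ENTPD1 (0.74 and 0.68) and DNTTIP2 (0.72 and 0.68). These arrays share tissue makeup, RNA quality and the split by array number, so the coefficients are descriptions only.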

How the data were processed

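Intensity per probe set was deposited by the authors for 20 liver and 20 backfat arrays; the submitters' processing notes name affy and MAS5 without version or role. The values are linear and already scaled per array, so only log2 was taken, with no offset. Arrays carry no counts, and their number limits the precision. Of 24123 probe sets, 124 controls were left out; the platform annotation gave 1 symbol to 10069, several to 198 and none to 13732. Tested were probe sets above the 40th percentile of their array on at least 5 arrays of the tissue. Group means were fitted with limma 3.58.1 in R 4.3.3 (lmFit, eBayes with intensity trend), with Benjamini-Hochberg adjustment over all probe sets tested and a threshold of 0.05. Comparisons of tissues used all 40 arrays, and a probe set was tested if it passed in either tissue (for the difference of diet effects, in both). Pairs of probe sets were compared by exact permutation.

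Named were all members; of 4 gene lists, up to 6 members past the threshold for diet in a tissue, or the 2 with the smallest p where none passed; and the 3 most correlated genes of each member's brightest probe set. Other list genes printed were chosen after their values were seen. Members and lists were chosen with earlier results of these data known. Alternatives were another normalization, filter, offset or variance trend, a replicate block, subsets of array numbers, RNA quality and marker covariates, and each array left out. Leaving out the 7 backfat arrays with a mean log2 signal of muscle or hepatocyte markers above 11, the tests of probe set pairs and the tissue bounds were added after seeing the data. The test was checked on simulated data. Figures used Python with matplotlib.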

Additional observations from a re-analysis of the deposited data

Results flagged for a closer look

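Of 64 sets of 5 arrays (8 probe sets in 8 groups), 4 had 1 array far from the other 4; chance flags about 1 in 20. LPL probe set A in high RFI restricted backfat had array 2 at 5282, below 6893 to 7498. LPL probe set B in high RFI restricted liver had array 5 at 1.93, against 18.1 to 39.7, all below the level tested. FABP5 probe set A in low RFI ad libitum backfat had array 5 at 24463, above 17592 to 19187. FABP5 probe set B in low RFI restricted backfat had array 2 at 2034, above 927 to 1097.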

How the results depend on the processing

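LPL probe set A kept its diet call in backfat in all 31 alternatives (log2 difference -1.25 to -0.97) and LPL probe set B in 29 (-0.50 to -0.34). The count of 4 members called for diet in backfat became 2 without the filter. It was 1 with arrays 1 and 2 or without the 7 marker-rich arrays. That of 3 in low RFI pigs became 1 without the filter, without the intensity trend, with arrays 3 to 5 or with marker covariates. It was 0 with arrays 1 and 2 or without the marker-rich arrays. That of 1 in high RFI pigs became 2 with quantile normalization or the stricter filter. It was 0 with arrays 1 and 2 or 3 to 5. With 1 array left out the counts were 3 to 4, 1 to 3 and 1 to 2. Over all probe sets they were 3432 to 4547, 839 to 1624 and 757 to 2239 (main tests 3999, 1426 and 1398). Causes beyond fewer samples were not tested.

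The single arrays whose removal ended the call on FABP5 probe set B were high RFI ad libitum 2, 3, 4 and 5, high RFI restricted 1 and 5, low RFI ad libitum 2, 3, 4 and 5, and low RFI restricted 1 and 2 (log2 difference 0.37 to 0.49 in these). In low RFI pigs, FABP5 probe set A lost its call without low RFI ad libitum 4 or 5 or restricted 1, 3 or 5 (-0.44 to -0.35 in these). LPL probe set B lost its call there in 11 of 20 removals (-0.44 to -0.31 in these): any low RFI ad libitum array, low RFI restricted 1, 3 or 5, high RFI ad libitum 1 or 4, or high RFI restricted 4. In high RFI pigs it gained one without high RFI restricted 1 or low RFI restricted 1 or 2. PPARG passed without low RFI restricted 3 or 4 (adjusted p = 0.0447 and 0.0379) and CEBPA without low RFI ad libitum 2 or restricted 3 (0.0354 and 0.0314).

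Values that changed sign were all uncalled. For diet in backfat FABP4 gave 0.02 with arrays 1 and 2, 0.01 with either set of covariates, 0.05 without the marker-rich arrays and -0.04 to 0.03 with 1 array left out. PNPLA2 probe set A gave -0.22 with the GAPDH and actin covariates and -0.00 to 0.15 with 1 array left out, and probe set B -0.39, then -0.07 with marker covariates, -0.06 without the marker-rich arrays and -0.04 to 0.32 with 1 array left out. In liver, arrays 1 and 2 gave 0.01 for PNPLA2 probe set A, -0.23 for FABP5 probe set A and 0.18 for FABP3; PNPLA2 probe set B gave -0.03 with arrays 3 to 5, -0.10 with the GAPDH and actin covariates and -0.08 to 0.15 with 1 left out, and FABP5 probe set A -0.05 to 0.16. The PNPLA2 probe set B difference between tissues gave -0.02 with arrays 1 and 2 and -0.08 to 0.29 with 1 left out. The PNPLA2 pair gave 0.10 with quantile normalization, 0.13 without the marker-rich arrays and -0.23 to 0.04 with 1 left out. With arrays 1 and 2 alone the LPL and FABP5 pairs gave -0.76 and -0.87 (adjusted p = 0.0833), a subset with too few arrangements to pass.

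At the 60th percentile the log2 bounds on backfat over liver were 5.26 and 5.96 for LPL (6.66 and 7.36 at the 40th), 6.45 for FABP4 (7.58), 4.80 for LIPE (6.21), 1.63 for PNPLA2 probe set B (2.79) and 2.17 for FABP5 probe set B (3.58).

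With the replicate block, LPL probe set A gave -1.08 (adjusted p = 8.26e-06) and all 4 member calls for diet in backfat held; CEBPA passed in backfat (adjusted p = 0.0231) and PPARGC1A in liver (-0.49, adjusted p = 0.041). Same-numbered arrays of different groups correlated at 0.02 to 0.39 in backfat (23 of 30 over 0.1, 13 of 20 arrays closest to their own number) and up to 0.30 in liver (26 of 30). Backfat and liver arrays of the same group and number correlated at a mean of 0.22 (19 of 20 over 0.1). With other numbers of the same group the mean was -0.05 (15 of 80). The labels do not explain the numbers, and the main tests did not pair by them. FABP1 in liver passed with quantile normalization (-0.41, adjusted p = 0.0247). With arrays 1 and 2 alone GPIHBP1, PNPLA3, ACSL1, ACSL4, ACSL5 and FABP3 missed the threshold in backfat.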
